A study of Homo sapiens with 8 samples.

Results

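The 200 GENCODE long non-coding RNA (lncRNA) entries with the highest expression in A498 and 786-O cells were examined. They were selected on their mean FPKM over the 8 libraries (fragments per kilobase of transcript, scaled to all mapped fragments of the library), after well-known lncRNAs had been left out by name: MALAT1, NEAT1, TUG1, H19, MEG3, PVT1, CRNDE, MIR22HG, GAS5, DANCR and all names that begin with SNHG. The 200 members were drawn from 13215 entries, out of 13236 GENCODE entries before these exclusions and 75378 entries of all kinds in a deposited table. Mean FPKM over all libraries chose the members, so their high levels are a description and not a finding.

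The study asked what changed when the lincRNA SLINKY (RP5-884M6.1) was knocked down in A498 and 786-O, established cell lines from clear cell renal cell carcinoma (ccRCC). A498 was grown in DMEM and 786-O in RPMI-1640, so the cell line and its medium cannot be told apart. Each line gave 2 libraries with non-targeting control siRNA (NTC), 1 with siRNA1 against SLINKY and 1 with siRNA2, all at 50 nM and, by the labels, for 16 h. The study's methods put RNA isolation at a later time after transfection. The labels call the siRNAs pools, where the methods describe distinct siRNAs to the first exon. Nothing in the labels says that the libraries of a group came from separate cultures, and the p-values measure the spread between these libraries. Where 4 values are given for a line, they are in the order NTC 1, NTC 2, siRNA1 and siRNA2. SLINKY itself ranked 501 and was not a member. Its FPKM was 14.6, 16.1, 1.64 and 3.01 in A498 and 1.45, 1.39, 0.0569 and 0.594 in 786-O, lower in each siRNA library than in both NTC libraries of its line. The log2 difference was -2.73 ± 0.71 (SE) in A498 and -2.21 ± 0.71 in 786-O, with limma adjusted p of 0.870 and 1. The libraries held an estimated 25073731 to 64531835 mapped reads, and factors from the median ratio between libraries from 1.01 to 1.03.

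LncRNAs are transcripts with no evident protein product that are spliced and polyadenylated much like mRNAs. Some arise from promoters of their own between genes, some start next to the promoter of a coding gene and run the other way, and some lie antisense across a coding gene's exons. Their levels tend to be lower and more restricted to particular cell types than those of mRNAs. The library kit used here does not keep the strand of the RNA, so reads from an antisense lncRNA and from the coding exon beneath it cannot be told apart by strand.

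Which entries were members. Mean FPKM fell from 3831 at rank 1 (RP11-386G11.10) to 19.9 at rank 200 (CTC-338M12.3). The entry just outside, RP11-290L1.3, had 19.8. The members together held 75.8% to 77.7% of the summed FPKM of all GENCODE entries of a library. Most had clone names (163), 19 had antisense or intronic names, 5 had LINC names and 13 had other symbols. In the later GENCODE v44 annotation, 148 of them are lncRNA genes, 13 are protein-coding genes and 32 identifiers are no longer listed. Chromosome 19 held 33 members (16.5%, against 4.96% of all GENCODE entries) and chromosome 17 held 24 (12% against 5.97%). Of all 13236 GENCODE entries, 1322 had a mean of at least 1 FPKM, so these backgrounds hold mostly entries of low level. The members were not compared with the expressed entries alone. Their loci spanned 68 to 317348 bp, with a median of 3918 bp.

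Many members lay over coding exons. A RefSeq coding entry overlapped 152 of the 200, and in v44 109 members shared exon bases with a coding gene's exon on the opposite strand and 20 with one on the same strand. To measure this at the length of a read, each member's sequence was split into all its words of 36 bases, and the share of words that also occur in v44 protein-coding transcripts on either strand was counted. The sequence was that of the v44 transcripts for 168 members. For the other 32 it was the whole locus with any introns, so their shares are not the same measure. The median share was 48.6%. It was 50% or more in 99 members, under 10% in 58, and 0 in 19. Setting aside the 13 that v44 calls coding left 96 members with 50% or more, 40 with 10% to under 50% and 51 with under 10%.

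The overlap is shown here for RP4-816N1.7, at rank 11, because a read-length stretch of it is also a stretch of FKBP4, the gene of an immunophilin that works with HSP90. An exon of RP4-816N1.7 covers 135 bases of a coding exon of FKBP4 on hg19 (chr12:2906304-2906438). The same 36 bases within it, chr12:2906354-2906389, read on each strand as follows.

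FKBP4, plus strand: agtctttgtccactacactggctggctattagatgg

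RP4-816N1.7, minus strand: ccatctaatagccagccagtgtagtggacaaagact

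A read of either sequence fits both genes in a library without strand.

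The promoter windows of both 786-O-specific members are shown next, as the starts of entries that were nearly unread in A498. Each window runs from 250 bases before to 50 bases after the start of the locus in the files, read from the hg19 genome on the strand that v44 gives, with each CG dinucleotide in capitals. AC004791.2 (CLEC4OP in v44) has chr19:15975685-15975984 on the minus strand and MAGI2-AS3 has chr7:79081948-79082247 on the plus strand.

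AC004791.2: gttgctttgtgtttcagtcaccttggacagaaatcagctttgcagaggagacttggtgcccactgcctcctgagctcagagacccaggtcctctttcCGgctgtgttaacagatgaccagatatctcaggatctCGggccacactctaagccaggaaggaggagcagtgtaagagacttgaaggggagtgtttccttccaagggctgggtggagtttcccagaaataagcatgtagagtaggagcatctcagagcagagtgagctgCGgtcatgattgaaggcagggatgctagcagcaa

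MAGI2-AS3: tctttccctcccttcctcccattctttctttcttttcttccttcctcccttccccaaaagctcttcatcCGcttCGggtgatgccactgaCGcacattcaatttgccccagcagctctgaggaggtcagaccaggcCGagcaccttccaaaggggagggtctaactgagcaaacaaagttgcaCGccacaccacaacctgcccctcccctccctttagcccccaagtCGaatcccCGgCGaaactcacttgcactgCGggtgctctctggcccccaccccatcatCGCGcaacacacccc

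The AC004791.2 window held 3 CG dinucleotides and the MAGI2-AS3 window 11. Among 35116 RefSeq promoter windows of the same length (GRCh38.p14) the median was 14, and 81.8% had 3 or more and 54.7% had 11 or more. These counts describe the windows and say nothing of methylation, which was not measured.

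The highest members. The 12 highest entries were RP11-386G11.10, CTC-425F1.4, RP11-161H23.5, the entry over P4HB at rank 4, RP11-264B14.2, C17orf76-AS1, CTD-2616J11.9, AC009005.3, the entry over NFE2L1 at rank 9, RP11-138I1.4, RP4-816N1.7 and AC011558.5. All but C17orf76-AS1, which v44 names SNHG29, shared at least 33.4% of their words with coding transcripts. RP11-386G11.10 (TUBA1B-AS1 in v44), over the alpha-tubulin gene TUBA1B, had an FPKM of 2861, 2678, 2955 and 2903 in A498 and 5266, 4753, 4968 and 4264 in 786-O. The lines did not overlap, and the log2 difference A498 minus 786-O was -0.75 ± 0.06 (limma adjusted p = 0.000196). TUBA1B itself differed by -0.74. CTC-425F1.4 lies over CALR, the gene of the endoplasmic reticulum chaperone calreticulin, and had 1992, 2000, 1959 and 1789 in A498 and 2174, 2157, 2297 and 1977 in 786-O. Its lines overlapped, with a log2 difference of -0.15 ± 0.06 (adjusted p = 0.0618) beside -0.16 for CALR. C17orf76-AS1 had 562, 577, 610 and 588 in A498 and 665, 671, 671 and 632 in 786-O. It was slightly higher in 786-O, by a log2 difference of -0.17 ± 0.03 (adjusted p = 0.00362). RP11-264B14.2 lies within BCAS3 but shares 50.9% of its words with RPL23A, a ribosomal protein gene elsewhere, so reads of that family could be counted to it. The other 8 lie over TUBA1C, P4HB, ETFB, BSG, NFE2L1, UBB, FKBP4 and CNN2.

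A498 against 786-O. Of the 200 members, 67 were higher in A498 and 82 were higher in 786-O by limma's adjusted p under 0.05. Over all 17633 entries tested, 31.5% were higher in A498 and 31.2% in 786-O, so the share of members higher in A498 (33.5%) was close to the background and the share higher in 786-O (41.0%) was above it. The lines did not overlap for 138 members (69%, against 61.1% of all entries), all of them called. Entries of the background have a mean from 1 FPKM upwards, whereas every member has at least 19.9. The part of level in these shares was not tested. The median absolute log2 difference was 0.56 in the members and 0.58 over all entries tested, and 42 members differed by more than 1. Because the mean over both lines chose the members, an entry could enter through its high line alone. The mean in A498 alone was below the value at rank 200 for 25 members and the mean in 786-O alone for 14.

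**Figure D1:**
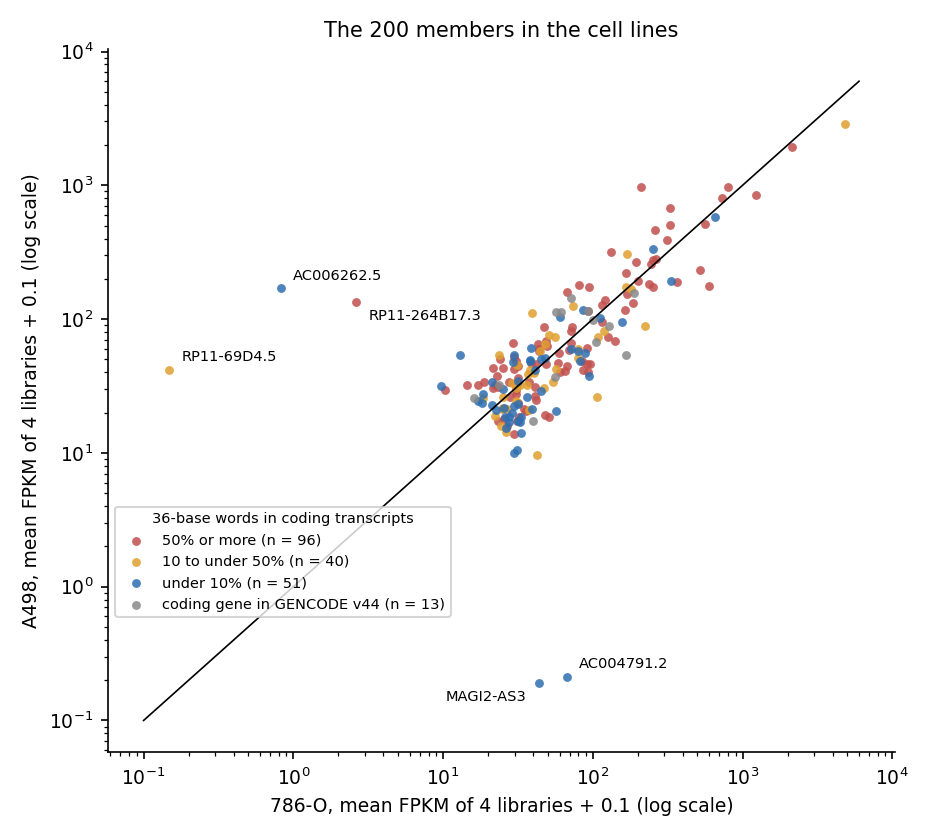
Mean FPKM of each of the 200 members in A498 (vertical axis) and in 786-O (horizontal axis), each over 4 libraries, plus 0.1 and on log scales, coloured by the share of 36-base words that also occur in coding transcripts; the line marks equal values. Most members lie near the line, and the 5 named ones differ by at least 10 times between all libraries of the lines.

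Members specific to a line. A member was called specific when its lowest library in one line was at least 10 times its highest in the other and the mean of its higher line reached 1 FPKM. This held for 3 members in A498 (1.5%, against 3.26% of all entries) and 2 in 786-O (1% against 1.13%).

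AC006262.5 (IGFL2-AS1 in v44) was the most abundant A498-specific member that shares little sequence with coding genes (1.99% of its words). It had an FPKM of 171, 181, 166 and 165 in A498 and 0.308, 0.624, 0.920 and 1.04 in 786-O. Every A498 library was at least 159 times every 786-O library, and the log2 difference was 7.80 ± 0.18 (adjusted p = 3.01e-06). IGFL2, the gene of a secreted protein of the insulin growth factor-like family that gives this lncRNA its later name, was itself near the floor, with a mean of 0.561 FPKM in A498 and 0.000979 in 786-O.

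RP11-69D4.5 (chr10:5033750-5034174) had 47.6, 38.1, 42.4 and 39.1 FPKM in A498, and 0.190 and then values under 0.001 in the other 3 libraries of 786-O. Its log2 difference was 8.32 ± 0.34 (adjusted p = 1.58e-05). The entry lies inside AKR1C2, the gene of an aldo-keto reductase that acts on steroids. AKR1C2 showed the same split, with 128 ± 9.08 FPKM (SD, n = 4) in A498 and 0.430 ± 0.0254 in 786-O, as did its neighbour AKR1C1 with 517 ± 31.6 and 1.68 ± 0.165. Of the words of the RP11-69D4.5 locus, 12.8% occur in spliced AKR1C2 transcripts. The part of unspliced AKR1C2 RNA in its value was not tested.

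RP11-264B17.3 (chr16:28986125-29002096) had 151, 133, 131 and 125 FPKM in A498 and 1.87, 2.46, 3.66 and 2.07 in 786-O, a log2 difference of 5.74 ± 0.20 (adjusted p = 8.79e-06). Cufflinks marked its NTC 1 and siRNA1 values in A498 as failed estimates. It runs along the same strand across SPNS1, the gene of a lysosomal transporter, and LAT, which encodes an adaptor of T cell receptor signalling, and 69.9% of its words occur in coding transcripts. SPNS1 was similar in the lines, at 61.5 ± 5.80 FPKM in A498 and 47.8 ± 1.87 in 786-O. LAT was 85.4 ± 9.43 in A498 and 0.371 ± 0.347 in 786-O, a log2 difference of 7.89.

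MAGI2-AS3 was the reverse. It had 0.0131, 0.153, 0.116 and 0.0838 FPKM in A498 and 39.3, 41.2, 45.8 and 47.8 in 786-O. Every 786-O library was at least 257 times every A498 library, and the log2 difference was -7.89 ± 0.26 (adjusted p = 7.94e-06). Its locus overlaps that of MAGI2, the gene of a membrane scaffold protein. MAGI2 was near the floor in both lines, at 0.256 ± 0.0578 FPKM in A498 and 0.0118 ± 0.00570 in 786-O. The RefSeq entries of MAGI2-AS3 itself summed to 0.552 FPKM in 786-O, so nearly all of the gene's FPKM was assigned to the GENCODE entry.

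AC004791.2 had 0.0989, 0.0214, 0.323 and 0.00938 FPKM in A498 and 60.8, 76.7, 74.6 and 55.7 in 786-O, a log2 difference of -8.51 ± 0.46 (adjusted p = 4.06e-05). In v44 its identifier belongs to the lectin pseudogene CLEC4OP, and none of its words occurs in a coding transcript. The nearest RefSeq coding gene, CYP4F2, lies 13100 bp away and was near the floor in both lines, at 0.407 and 0.0171 FPKM. In the lines where they were low, the Cufflinks intervals of AC006262.5, RP11-69D4.5, MAGI2-AS3 and AC004791.2 implied means of 0.124 to 3.38 fragments per library, so the size of their ratios is uncertain. For RP11-264B17.3 the intervals implied a mean of 55.0 fragments in 786-O.

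**Figure D2:**
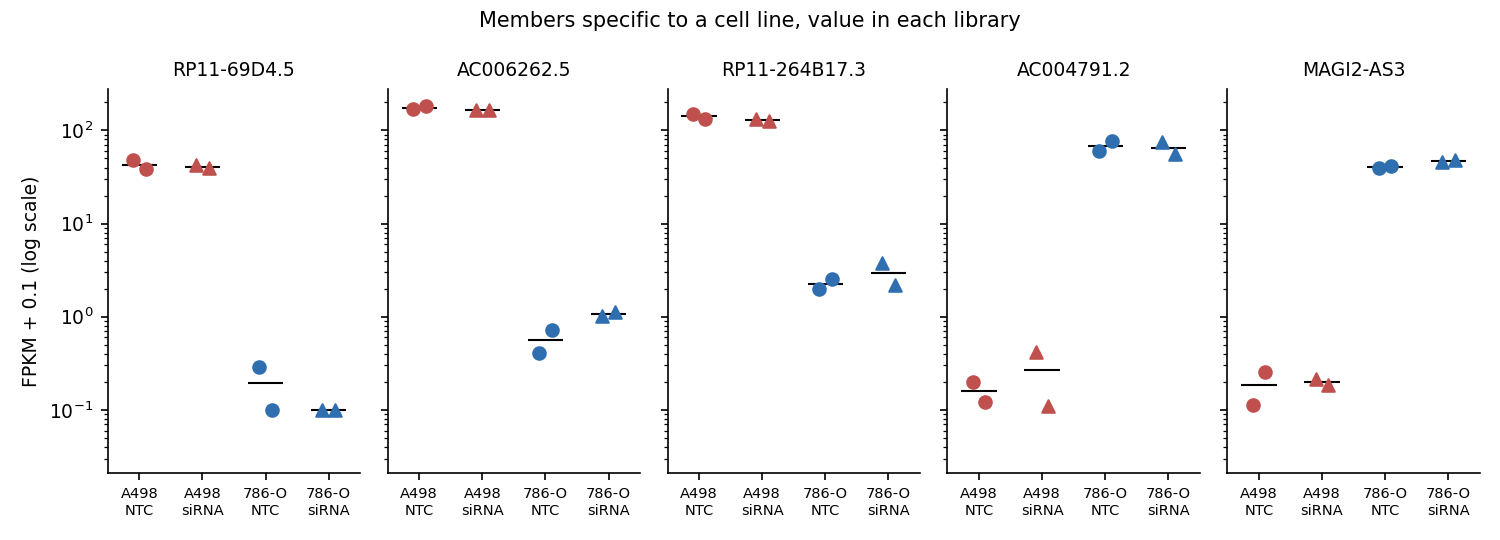
FPKM plus 0.1 on a log scale for the 5 line-specific members in each of the 8 libraries, with circles for NTC, triangles for siRNA, red for A498, blue for 786-O and a black bar at the mean of each pair. The A498 libraries lie far above the 786-O libraries for RP11-69D4.5, AC006262.5 and RP11-264B17.3 and far below them for AC004791.2 and MAGI2-AS3, and NTC and siRNA libraries of a line lie together beside that gap.

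Among the other members whose lines did not overlap, the largest differences had log2 values of 1.23 to 2.23 in A498 and -1.46 to -2.13 in 786-O. Towards A498, CTD-2616J11.9 had 1089, 953, 985 and 868 FPKM in A498 and 241, 220, 193 and 181 in 786-O (log2 difference 2.23 ± 0.07, adjusted p = 6.54e-06). It lies over ETFB, a subunit of the electron transfer flavoprotein of mitochondria, which differed by 2.17. RP11-939C17.2 lies over SERPINH1, a collagen chaperone, and differed by 1.27 beside 1.34 for the gene. RP11-667K14.4 differed by 1.23 beside 1.06 for DPH1, an enzyme of diphthamide synthesis, and RP11-134G8.8 by 1.55 beside 1.54 for PHLDA3, a target of p53. RP11-395B7.4 (MUC12-AS1 in v44) differed by 1.49, and the mucin gene MUC12 was low, at 1.5 FPKM in A498 and 0.260 in 786-O. Another 2 of these entries share no word with coding transcripts. RP11-490M8.1 (CRIM1-DT in v44), which begins 1113 bp from the growth factor-binding gene CRIM1, had 28.7, 29.9, 34.2 and 32.3 FPKM in A498 and 8.31, 8.79, 12 and 9.43 in 786-O. Its log2 difference was 1.7 ± 0.08 (adjusted p = 2.96e-05), and that of CRIM1 was 0.70. CTC-246B18.10 spans only 173 bp and had 54.0, 53.7, 46.2 and 62.7 in A498 and 15.5, 13.0, 18.5 and 4.78 in 786-O, a log2 difference of 2.21 ± 0.43 (adjusted p = 0.0060).

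Towards 786-O, RP4-816N1.7 had 177, 167, 188 and 173 FPKM in A498 and 616, 630, 584 and 575 in 786-O (log2 difference -1.77 ± 0.04, adjusted p = 2.31e-06). FKBP4, whose exon it covers, differed by -1.76. RP11-229P13.22 differed by -2.03 beside -1.78 for SAPCD2, and RP11-79P5.2 (FOXD1-AS1 in v44) by -1.46 beside -1.32 for FOXD1, a transcription factor of the kidney stroma. These pairs moved alike. Others did not have a coding gene that moved with them. AC003092.1, which shares no word with coding transcripts, had 18.9, 21.2, 19.2 and 22.0 FPKM in A498 and 55.0, 57.3, 55.8 and 57.7 in 786-O (log2 difference -1.47 ± 0.06, adjusted p = 1.81e-05), and its nearest coding gene BET1, 18455 bp away, differed by -0.03. TTC28-AS1 had 9.59, 11.8, 10.48 and 9.66 in A498 and 30.05, 30.5, 35.9 and 28.5 in 786-O (log2 difference -1.58 ± 0.10, adjusted p = 7.93e-05), whereas TTC28 was at 0.857 and 0.131 FPKM. RP11-534G20.3 (SVIL-AS1 in v44) had 8.78, 12.6, 8.07 and 8.98 in A498 and 36.4, 45.2, 47.9 and 38.6 in 786-O (log2 difference -2.13 ± 0.15, adjusted p = 0.000111), beside -0.32 for SVIL, the gene of the actin-binding protein supervillin. For this member and AC004791.2, v44 gives the same name to a pseudogene, which keeps the identifier of the files, and to a separate lncRNA, and their shared words were counted on the pseudogene entry. CTC-338M12.3 (TRIM52-AS1 in v44) differed by -1.60 and TRIM52 by -0.10. MMP24-AS1, which v44 itself calls a protein-coding gene, differed by -1.64 with a failed estimate in 786-O NTC 2. MMP24, the gene of a membrane matrix metalloproteinase, differed by -0.42.

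Members beside their coding genes. For each member, the coding gene that shares most of its words was taken as its partner, and the line difference of the summed RefSeq coding entries of that gene was set beside the member's own. Among members with 50% or more of words shared, 92 had a partner with a mean of at least 1 FPKM, and 85 of them lay within 0.5 log2 units of it. Pearson's r across these 92 members was 0.73, and 0.90 across the 91 left without RP11-264B17.3. The partner of RP11-264B17.3 was SPNS1, whereas LAT, which this member also crosses, differed by 7.89. Among members with 10% to under 50%, 27 of 34 lay within 0.5 (r = 0.84, or 0.45 across 33 without RP11-69D4.5). Among members with under 10%, 9 of 21 did (r = -0.02, or 0.39 across 20 without AC006262.5). These correlations run across members of the same 8 libraries, which are not independent, and members of the first set share read sequence with their partners, so the likeness is a description of the entries. In the first set 82 of 92 had a higher FPKM than the partner. The part of the partner's reads in these values was not tested. Members with under 10% of words shared were higher in A498 in 13 cases and higher in 786-O in 23 of 51, with a median absolute log2 difference of 0.64. In those with 50% or more, 37 were higher in A498 and 33 in 786-O of 96, with a median of 0.53.

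**Figure D3:**
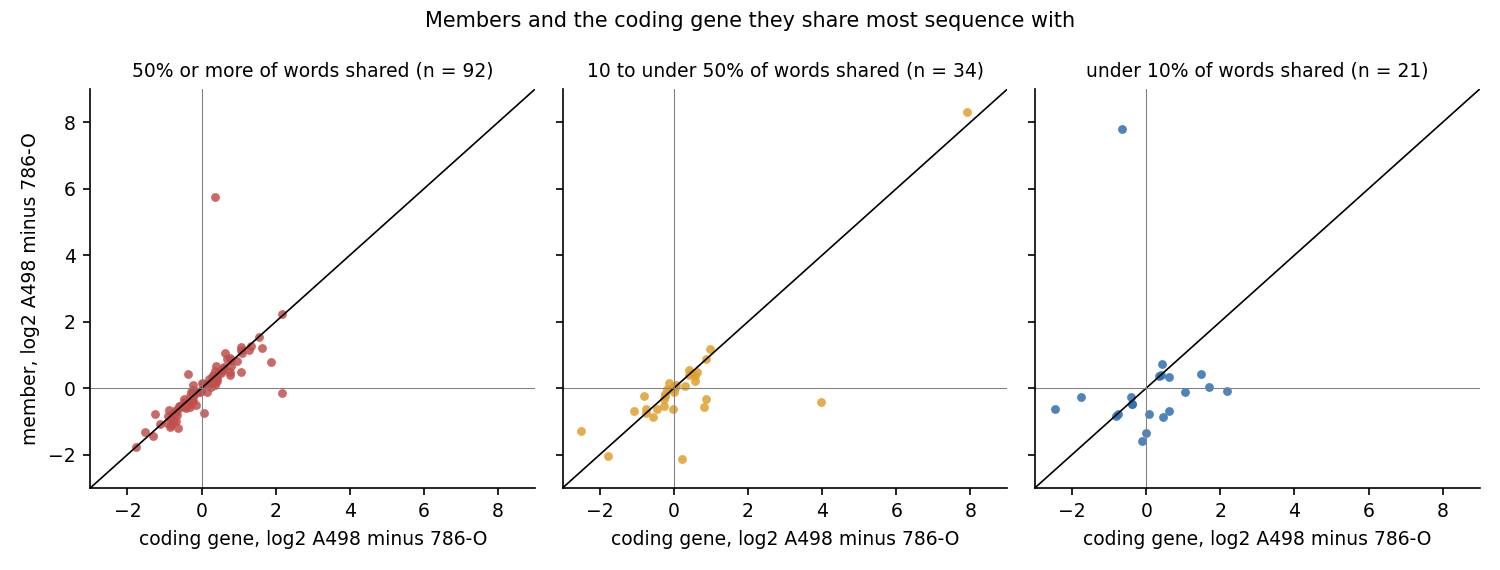
Log2 difference A498 minus 786-O of a member (vertical axis) against that of the coding gene it shares most words with (horizontal axis), in 3 panels by the share of 36-base words in coding transcripts; the diagonal marks equal differences. With 50% or more shared, 85 of 92 members lie within 0.5 of the diagonal. RP11-264B17.3, set here against SPNS1 and not LAT, lies far above it.

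Of the members, 34 have a RefSeq entry of their own at the same place, and the reads of such a gene were divided between its entries. The GENCODE entry held over 90% of the summed FPKM for 29 of the 34 and under 50% for 2. Those 2, named here after their values were seen, were LINC00152 (CYTOR), with 22.3% of the sum, and ZNFX1-AS1 (ZFAS1), with 35.8%. Their listed levels are thus low for the whole gene. Adding the RefSeq entries left the direction of the line difference as it was for all 34 and moved it by less than 0.2 log2 units in each.

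LncRNAs known from other work. Of 23 lncRNAs of the HOX clusters that were listed, 8 were tested, 2 of them members, and 2 of the 8 were higher in A498 and 3 in 786-O, beside backgrounds of 31.5% and 31.2%. Both members were higher in 786-O. HOTAIRM1, known from myeloid differentiation, had 18, 13.7, 19.04 and 22.8 FPKM in A498 and 27.8, 25.6, 27.4 and 29.6 in 786-O (log2 difference -0.61 ± 0.11, adjusted p = 0.00476). HOXA-AS2 had 19.3, 17.5, 21.6 and 15.4 in A498 and 25.8, 23.0, 28 and 25.8 in 786-O (log2 difference -0.48 ± 0.12, adjusted p = 0.0167), a call that was lost with no filter on low values (adjusted p = 0.0604) and without A498 NTC 2, 786-O NTC 1 or 786-O siRNA1. HOXA4, which HOXA-AS2 overlaps, differed by -0.37.

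Of 56 listed names of lncRNAs known in cancer or RNA biology, 11 were tested under the listed name, 5 of them members. Over the 11, 1 was higher in A498 and 6 in 786-O (backgrounds 31.5% and 31.2%), with a median log2 difference of -0.35. ZFAS1 was listed too, but the files hold it under the name ZNFX1-AS1. That entry is a member outside these counts, with a log2 difference of -0.12. LINC00467 had 16.4, 15.2, 18.09 and 17.5 FPKM in A498 and 29.4, 22.6, 28.3 and 29.2 in 786-O (log2 difference -0.70 ± 0.09, adjusted p = 0.00118). EPB41L4A-AS1, also a host of a small nucleolar RNA, had 43.6, 41.4, 41.4 and 42.9 in A498 and 58.4, 56.3, 59.6 and 50.9 in 786-O (log2 difference -0.41 ± 0.06, adjusted p = 0.00191). LINC00511 was higher in A498, with 30.8, 25.3, 24.1 and 29.3 against 20.34, 13.3, 19.4 and 20.1 (log2 difference 0.59 ± 0.16, adjusted p = 0.0212). This call was lost with no filter (adjusted p = 0.0758) and without A498 NTC 1, A498 siRNA2, 786-O siRNA1 or 786-O siRNA2. LINC00152, a cytoplasmic lncRNA linked to proliferation, had 46.2, 55.5, 32.6 and 59.7 in A498 and 49.4, 32.3, 41.3 and 29.5 in 786-O, and the lines overlapped (log2 difference 0.34 ± 0.26, adjusted p = 0.301). TP53TG1, a target of p53, had 59.1, 36.1, 31.5 and 11.5 in A498 and 33.0, 27.6, 34.5 and 30.5 in 786-O (log2 difference -0.08 ± 0.35, adjusted p = 0.867). No microRNA host gene, X inactivation centre lncRNA or kidney lineage antisense lncRNA of the lists was a member by its name in the files, where 3, 1 and 0 of them were tested. Of the 3 microRNA host genes tested, MIR22HG had been left out by name and could not be a member. FOXD1-AS1 was listed for the kidney lineage, but the files hold it under the clone name RP11-79P5.2.

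Knockdown against NTC. No member passed limma's adjusted p of 0.05 for SLINKY knockdown in A498, in 786-O or over both lines, and none for a difference of the knockdown between lines. The same fit did not call SLINKY itself in either line, at log2 differences of -2.73 in A498 and -2.21 in 786-O. It could thus miss a large change, and the lack of calls does not show that the members did not respond. Over all entries tested the shares called were 0.0681% in A498, 0.0737% in 786-O, 0.0681% over both and 0.0397% for the difference between lines, so about 0 of 200 is also what the background holds. With an unadjusted p under 0.05 there were 13 members in A498, 10 in 786-O, 18 over both lines and 5 for the difference. These are 6.5%, 5%, 9% and 2.5% of the members, beside 5.25%, 3.99%, 6.46% and 3.61% of all entries. The smallest adjusted p among the members was 0.670, 1, 0.588 and 0.775. The median log2 difference of the members was -0.02 in each line, and that of all entries was 0.00.

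Between single libraries, a member was counted where its ratio was at least 5 to 4, an absolute log2 difference of 0.32. The siRNA libraries were set beside the NTC pair in this way. In A498, 32 members passed between the NTC libraries (background 24.8%), and 32, 35, 46 and 30 passed between siRNA1 and NTC 1, siRNA1 and NTC 2, siRNA2 and NTC 1, and siRNA2 and NTC 2 (backgrounds 25.7%, 24.3%, 30.9% and 26.9%). In 786-O, 38 passed between the NTC libraries (background 24.2%), and 32, 43, 40 and 35 in the same order of pairs (backgrounds 26.1%, 26.5%, 25.9% and 24.5%). The share of members past this threshold, 15% to 23% of the 200, lay below the background share in each of these 10 comparisons. The background holds entries with a mean from 1 FPKM upwards, whereas every member has at least 19.9. The sets thus differ in level, and the part of level in this was not tested. No member passed it in the same direction in all 8 comparisons of an siRNA with an NTC library, against 0.289% of all entries. The median absolute log2 difference of the members was 0.13 between the NTC libraries of each line and 0.14 between single siRNA and NTC libraries. The siRNA and NTC libraries did not overlap for 79 members in A498 (39.5%, against 35.9% of all entries) and for 51 in 786-O (25.5% against 31.0%).

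**Figure D4:**
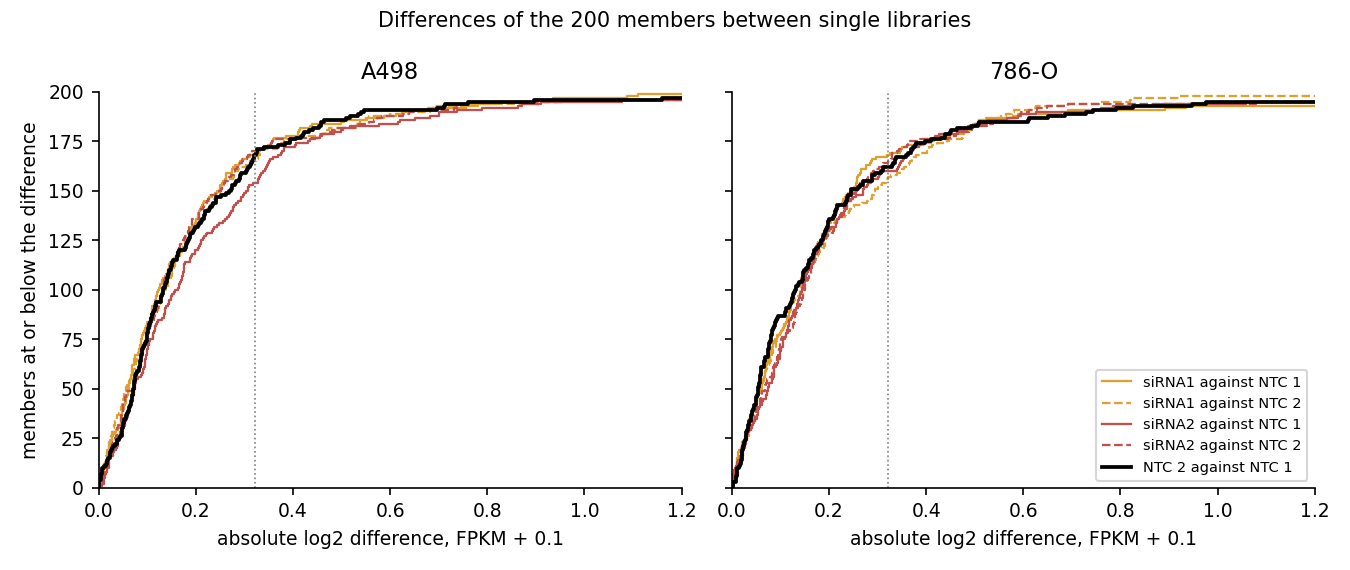
Number of the 200 members (vertical axis) whose absolute log2 difference between a pair of libraries is at or below the value on the horizontal axis, for the NTC pair of each line (black) and the 4 pairs of an siRNA with an NTC library (orange for siRNA1, red for siRNA2), with a dotted line at 0.32, a ratio of 5 to 4. The curves of a line run close together, with 30 to 46 members past the dotted line in A498 and 32 to 43 in 786-O.

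None of the line-specific members was called for knockdown. The log2 difference knockdown minus NTC in the line where each is high was -0.09 ± 0.26 for AC006262.5, -0.07 ± 0.48 for RP11-69D4.5, -0.15 ± 0.28 for RP11-264B17.3, -0.08 ± 0.65 for AC004791.2 and 0.22 ± 0.37 for MAGI2-AS3. RP11-79P5.2 had the smallest adjusted p of the members in A498, with 21.0 and 20.1 FPKM in the NTC libraries and 16.8 and 16.4 with siRNA (log2 difference -0.31 ± 0.06, adjusted p = 0.670). In 786-O its values were 46.8 and 51.3 with NTC and 52.5 and 52.7 with siRNA. TP53TG1 had lower values with siRNA than with NTC in A498 (given above), with a log2 difference of -1.27 ± 0.50 (adjusted p = 0.877) beside -0.71 between the NTC libraries, NTC 2 minus NTC 1. In 786-O it differed by 0.10 ± 0.50 (adjusted p = 1). LINC00152 differed by -0.20 ± 0.37 in A498 (adjusted p = 0.962) and by -0.19 ± 0.37 in 786-O (adjusted p = 1), where its NTC libraries themselves differed by -0.61.

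The reads behind a value. The width of the Cufflinks interval implies a number of fragments behind an estimate, which is not a direct count. The median over members of the median per library was 411 fragments, and 7 members had a median under 10. In A498, 6 of the 7 members with under 10 fragments in the NTC pair differed by 0.32 or more on the log2 scale between these libraries, as did 11 of 25 with 10 to 100, 9 of 105 with 100 to 1000 and 5 of 60 with 1000 or more. In 786-O the counts were 6 of 7, 10 of 27, 19 of 95 and 2 of 65. The median absolute log2 difference of the NTC pair fell from 0.71 in the lowest class to 0.10 in the highest in A498, and from 1.53 to 0.09 in 786-O. Members with fewer implied fragments spread more between control libraries.

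**Figure D5:**
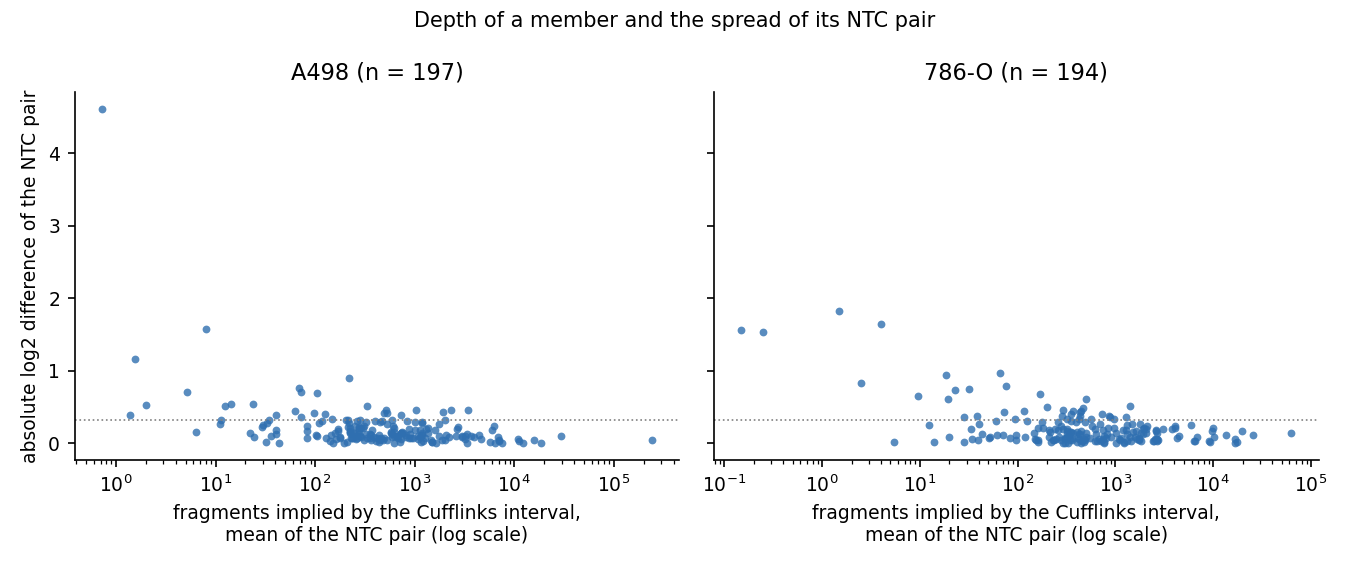
Absolute log2 difference between the NTC libraries (vertical axis) against the mean number of fragments that the Cufflinks intervals imply (horizontal axis, log scale) for the members of each line with an interval in both NTC libraries (197 in A498, 194 in 786-O); the dotted line marks 0.32, a ratio of 5 to 4. Members with under 10 fragments have a median of 0.71 in A498 and 1.53 in 786-O, and those with 1000 or more have 0.10 and 0.09.

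A few short members show this most, named here after their values were seen. RP11-298J23.9 spans 68 bp and was listed at 37.5, 0, 56.3 and 79.2 FPKM in A498 and 0, 30.8, 54.4 and 0 in 786-O. In each library where it was above 0, the interval implied 1 fragment, so its rank of 136 rests on 1 fragment in each of 5 libraries. All its words also occur in USP49. SNORD62A, a small nucleolar RNA of 86 bp, was listed at 28.2, 40.9, 21.2 and 0 in A498 and 41.2, 11.6, 0 and 31.8 in 786-O, with at most 2 fragments in a library. AC004528.3 spans 107 bp and had 85.2, 70.6, 9.15 and 64.3 in A498 and 44.5, 70.0, 133 and 68.7 in 786-O. The low siRNA1 value in A498 rests on 1 fragment. In all, 5 members span under 200 bp.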

How the data were processed

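Transcriptomes of 8 libraries of A498 and 786-O cells were measured by single-end 36-base RNA-seq with a kit that does not keep strand. Per the labels and methods, the authors aligned the reads to hg19, and the deposited values are FPKM estimated by Cufflinks in each library. The submitters' processing notes list TopHat2 2.0.0 and Cufflinks 2.0.2. Counts were not used here. Fragments behind a value were taken from its deposited 95% interval, and depth was estimated from single-exon RefSeq entries with an assumed fragment of 200 bases. Intervals describe an estimate within a library and not the spread between libraries. Their widths held more than counting error, so an implied number is not a direct count. For RP3-508I15.18 it ran from 6.2 to 1707 over the 8 libraries, at an FPKM of 66.8 to 134.7. For RP11-316M1.12 it ran from 60.0 to 3738, at 246.7 to 284.2 FPKM. Of 36928 RefSeq values with few reads, 46.7% implied a whole number, to within 0.01. The cause was not tested.

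Values were fitted as log2(FPKM + 0.1) with limma 3.58.1 in R 4.3.3 (trend, robust) across the 17633 entries with a mean of at least 1 FPKM, with Benjamini-Hochberg adjustment at 0.05. Fold changes on this scale understate changes of low entries. All 200 members passed the filter. The fit was tested on simulated data for the comparison of the lines only, and not for knockdown. The 2 siRNAs served as replicates of the knockdown. Members and lists were chosen with earlier results of these data known. Named were the 12 highest members, per direction the 10 largest non-overlapping line differences, the line-specific members, members called for knockdown, members of the lists, and the entries at rank 200. Loci are hg19 and annotation is GENCODE v44 mapped to GRCh37. RefSeq names and promoters come from GRCh38.p14. Calculations outside R used Python with pandas and matplotlib. Alternatives were other pseudocounts, filters, scalings, thresholds, member sets, a replicate block and leaving out each library. The promoter window of a further member and a gene that a listed member overlaps are not reported here.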

Additional observations from a re-analysis of the deposited data

How the results depend on the processing

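Members higher in A498 numbered 67 and those higher in 786-O 82. Over the other settings of the fit, and for the 200 highest entries of at least 200 bp, the counts were 55 to 68 and 68 to 83, and leaving out each library gave 58 to 69 and 73 to 79. Among members that overlap no RefSeq coding entry, 15 and 18 were higher in A498 and 786-O, 1 and 1 were specific to a line, 7 and 11 passed a ratio of 5 to 4 between the NTC libraries of A498 and 786-O, and the medians over siRNA and NTC pairs were 9.5 and 12. Among members with under 10% of words shared with coding transcripts, a set chosen after seeing the data, the counts were 13 and 23, 1 and 2 specific to A498 and 786-O, 11 and 10 between NTC libraries, and medians of 13 and 12.5. Both sets are smaller by construction. At 1.5-fold, 9 and 15 members passed between the NTC libraries of A498 and 786-O and 12.5 in the median siRNA pair of both lines, and at 2-fold 4 and 5 did, with 4 and 6 in the median pair. The line-specific counts stayed at 3 and 2 with a ratio of 5 or 20 and without any one library, when all members were kept.

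No member was called for knockdown under any alternative, and the main fit did not call SLINKY itself either. The smallest adjusted p over them was 0.0797, in 786-O without NTC 2. Same-numbered libraries did not deviate together over all entries tested (r = -0.01 in A498 and 0.01 in 786-O, and -0.03 and 0.04 between the lines for NTC and knockdown), so the numbers were not taken as pairs. Over the 200 members r was 0.12 and -0.71 within and -0.83 and -0.54 between the lines, and over the 198 above 0 in every library 0.53 and -0.02 within and -0.42 and -0.20 between. With the replicate block, 68 and 81 members differed between the lines, 0 were called for knockdown, and the median numbered pair had 31 members past a ratio of 5 to 4 in A498 and 33.5 in 786-O. The count past a ratio of 5 to 4 one way in every siRNA and NTC pair was 0, and 0 to 2 with 1 library left out. It was 1 without A498 siRNA2 (RP11-23P13.6), 1 without 786-O NTC 2 (SNORD62A) and 2 without 786-O siRNA2 (RP11-298J23.9 and SNORD62A). These members were named after their values were seen, and all had few implied fragments in most libraries. TP53TG1 turned in the line comparison to 0.10 without A498 NTC 2 and 0.29 without A498 siRNA2 (-0.44 to 0.29 over the libraries left out), and in 786-O knockdown to -0.026 without NTC 2 (-0.026 to 0.23). LINC00152 turned in knockdown to 0.24 in A498 without siRNA1 (-0.64 to 0.24), and in 786-O to 0.11 without NTC 1 and 0.05 without siRNA2 (-0.50 to 0.11). HOXA-AS2 and LINC00511 lost their line call with no filter (adjusted p = 0.0604 and 0.0758). HOXA-AS2 also lost it without A498 NTC 2, 786-O NTC 1 or 786-O siRNA1, and LINC00511 without A498 NTC 1, A498 siRNA2, 786-O siRNA1 or 786-O siRNA2 (adjusted p of 0.0537 to 0.0713 over these fits). The cause was not tested.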
